A study of Zea mays with 10 samples.

Results

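Stem RNA of the inbred maize line F7033 was compared with stem RNA of the inbred line Cm484, on 2 arrays per line, which makes 4 of the 10 arrays of the series. The members of the comparison were fixed by the line given in the labels. Inbred lines are obtained by selfing over many generations. F7033 was described as a Flint-Dent line with yellow grain, derived from the genotype "(LorenaXF252)XF252". Cm484 was described as having Flint-Dent grain and as derived from the genotype "200-2-1". Each array held RNA from the stems of a pool of 5 untreated, field-grown plants, amplified, labelled with biotin and hybridised as 20 µg of cRNA to the Affymetrix maize array. The extracts of F7033 gave 60 µg (array 1) and 100 µg (array 2) of RNA, and those of Cm484 gave 90 µg (array 1) and 20 µg (array 2). The design text of the series speaks of a comparison of organs, but the labels of all 10 arrays give stem. No label says that the pools of a line came from separate plots. The p-values reflect only how far the pools of a line differ, shared over the 5 lines of the series, which can be a technical spread.

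The study asked which genes of the maize cell wall bear on how easily stem walls are degraded. A maize stem holds green outer tissue, fibres, vascular bundles and a pith of parenchyma. Its cells first lay down a thin, extensible primary wall, and the fibres, xylem and older parenchyma then add a thick secondary wall. Cellulose is spun at the plasma membrane by complexes of cellulose synthases (CesA), of which one set serves primary and another secondary walls. Lignin is built from monomers made from phenylalanine and is laid into the secondary wall, which limits its digestion. In RNA from whole stems, fewer cells of a type and less RNA per cell cannot be told apart. Whether the probes of the array match both lines equally well was not tested, so a low reading need not mean little RNA.

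Values are log2 levels as deposited, and a probe set was tested where at least 2 of the 4 arrays read 4 or more, which kept 10536 probe sets. Between 57.7% and 58.6% of probe sets read 4 or more on each of the 10 arrays. The arrays of F7033 correlated with each other at r = 0.989 across tested probe sets, those of Cm484 at 0.987, and arrays of F7033 with arrays of Cm484 at 0.825 to 0.847. Probe sets are not independent replicates. The stem label was set against marker genes. The secondary wall synthases, the tested lignin genes and kn1, a homeobox gene of stem tissue, were well above 4 in both lines. kn1 averaged 9.76 in F7033 and 9.69 in Cm484. Photosystem and antenna genes, of green tissue, were present too, with a highest line mean of 13.53 in F7033 and 13.27 in Cm484. No array is labelled as another organ, so these markers cannot tell stem from other shoot tissue. Below the filter was the lignin gene cncr2, at 2.59 or less on the arrays of F7033 and Cm484. Of 21 genes typical of endosperm, embryo or pollen, 20 were below the filter, and the storage protein gene gz27 passed it at 5.98 and 6.53 in F7033 and 6.06 and 6.46 in Cm484.

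The 2 lines differed at a large share of probe sets, in near equal numbers each way. With limma and a Benjamini-Hochberg adjusted p under 0.05, 4625 probe sets (43.9%) were called, 2299 (21.8%) higher and 2326 (22.1%) lower in F7033. Of these, 2282 (21.7%) differed by at least 2-fold, 1093 (10.4%) higher and 1189 (11.3%) lower. The annotation names 777 genes among the tested probe sets, and 328 of them (42.2%) were called, 176 (22.7%) higher and 152 (19.6%) lower in F7033. The arrays of F7033 and Cm484 overlapped in 0 of the 328, but they were also apart in 611 of the 777 tested genes (78.6%), so with 2 arrays a line this does little to set the called genes apart. The median log2 difference was 0.05 over the tested genes and -0.0041 over the tested probe sets, and the median size of the difference was 0.44 and 0.46. At least 2-fold apart were 83 genes called higher and 79 called lower. With line means under 4 raised to 4, 20 genes were at least 4-fold higher and 27 at least 4-fold lower, and 7 and 8 at least 8-fold. With F7033 array 1 left out, 2940 probe sets and 203 genes were called, 113 genes higher and 90 lower. Leaving out an array leaves its line with 1 array, whose spread is then taken to be that of the other lines. Calls over all tested genes fell in every fit without 1 of the 4 arrays. A fall in the calls of a gene list, as given below, is therefore not by itself particular to that list.

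**Figure D1:**
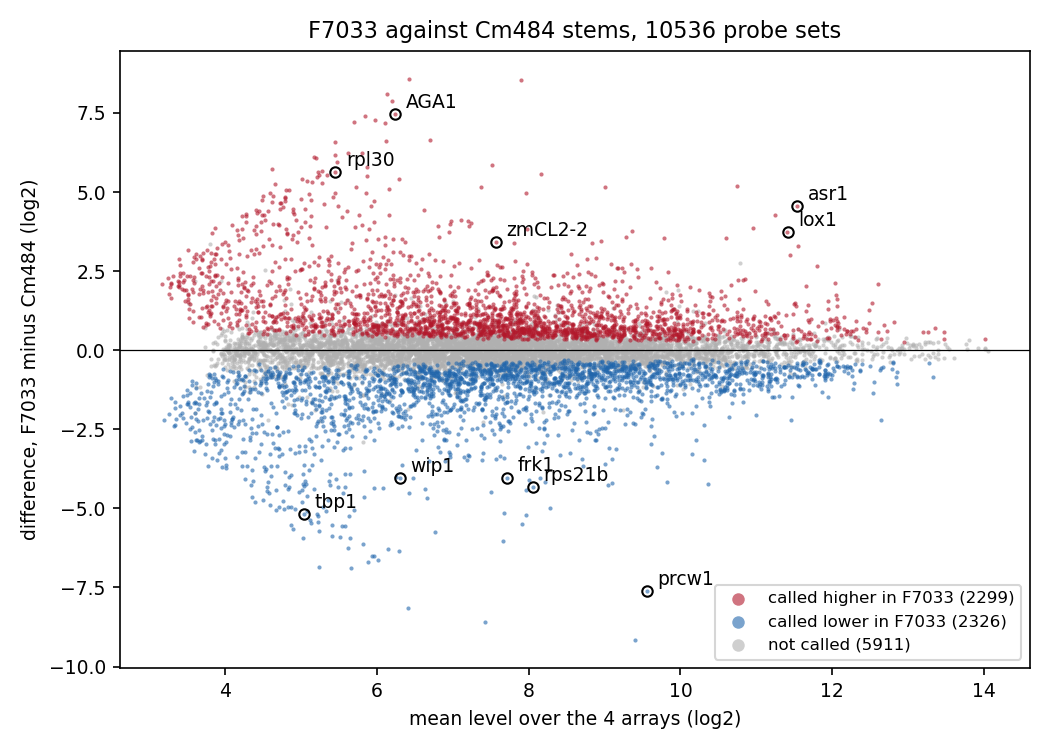
Difference between F7033 and Cm484 (log2, vertical axis) against the mean level over the 4 arrays (log2, horizontal axis) for each tested probe set. Red points were called higher in F7033, blue points lower and grey points not, and the 5 named genes furthest apart in each direction are circled. Points spread to both sides at all levels, 2299 called above 0 and 2326 below it.

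The genes furthest above Cm484 in F7033 had varied functions. AGA1, an alkaline alpha-galactosidase gene, read 9.93 and 10.02 on the F7033 arrays, against 2.51 and 2.49 on the Cm484 arrays. Both Cm484 arrays and the arrays of the other 3 lines (2.46 to 2.54) lay at the floor of the scale, and AGA1 was at least 62.9-fold higher in F7033 (limma adjusted p = 2.24e-08). Arrays at the floor vary little, and the spread shared by all lines can therefore understate that between the F7033 pools. Of the called genes, 17 had an F7033 mean under 4 and 18 a Cm484 mean under 4. Such genes could pass the filter through the other line alone, and the same limit can apply to their p-values. PEAMT, the gene of a phosphoethanolamine methyltransferase of choline synthesis, read 6.97 and 7.32 on the F7033 arrays, against 2.48 and 2.39 on the Cm484 arrays. It was at least 8.86-fold higher (adjusted p = 6.08e-07), again with the other lines at the floor (2.21 to 2.70). rpl30, a gene of a protein of the large ribosomal subunit, read 8.26 and 8.27 on the F7033 arrays, against 2.68 and 2.60 on the Cm484 arrays. Here Cm484 was the line that stood apart, since the other 3 lines read 9.56 to 10.17, and the difference was at least 19.2-fold (adjusted p = 2.61e-07).

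asr1, a gene induced by abscisic acid, stress and ripening, read 13.88 and 13.75 on the F7033 arrays, against 9.89 and 8.65 on the Cm484 arrays. In this probe set the Cm484 arrays were more than 1 log2 unit apart and below all others (10.74 to 14.16). The difference was 23.4-fold (log2 4.55 ± 0.32 SE, limma adjusted p = 1.52e-05), and 36-fold without Cm484 array 1 or 15.2-fold without Cm484 array 2. The other probe set of asr1 showed no such gap between the Cm484 arrays. It read 13.32 and 13.46 in F7033 and 9.13 and 9.11 in Cm484 (19.3-fold, log2 4.27 ± 0.09 SE). lox1, a lipoxygenase gene, read 13.36 and 13.21 on the F7033 arrays, against 9.25 and 9.83 on the Cm484 arrays. The F7033 arrays were above every other array of the series and the Cm484 arrays below every other one (10.54 to 12.35 in the other lines), and lox1 was 13.4-fold higher (adjusted p = 6.32e-06). The gibberellin gene an1, which encodes ent-copalyl diphosphate synthase, read 7.44 and 7.51 on the F7033 arrays, against 4.43 and 5.09 on the Cm484 arrays and was 6.56-fold higher (adjusted p = 6.45e-05). The Cm484 arrays of an1 were below the other 3 lines (5.83 to 8.86).

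The other genes among the 15 furthest above Cm484 were zmCL2-2 (10.7-fold, adjusted p = 4.14e-06), the tonoplast aquaporin gene TIP4-1 (at least 8.41-fold, adjusted p = 4.17e-05), gar2 (at least 7.67-fold, adjusted p = 0.014), GT1 (at least 6.34-fold, adjusted p = 6.32e-06) and PIP2-6 (at least 5.93-fold, adjusted p = 9.59e-05), a plasma membrane aquaporin gene. They also held the beta-tubulin gene TUB2 (5.18-fold, adjusted p = 0.000266), the glutathione S-transferase gene gst19 (5.04-fold, adjusted p = 1.55e-05), LOC732827 (5.02-fold, adjusted p = 4.21e-05) and the centromeric histone gene cenH3 (4.99-fold, adjusted p = 7.05e-05). TUB2 read 9.19 and 9.26 in F7033 and 6.79 and 6.91 in Cm484, and cenH3 read 6.47 and 6.83 in F7033 and 4.36 and 4.31 in Cm484. The other lines stayed near Cm484 for cenH3 (3.93 to 4.67), so F7033 was the line that stood apart. The call of gar2 was lost in 3 of the 4 fits without 1 array (adjusted p = 0.0592 to 0.0821 without F7033 array 2 or Cm484 array 1 or 2).

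The gene furthest below Cm484 in F7033 was prcw1, which encodes a proline-rich cell wall protein. It read 6.27 and 5.23 on the F7033 arrays, against 13.47 and 13.27 on the Cm484 arrays, and the other 3 lines read 13.18 to 13.67, so F7033 alone was low. prcw1 was 197-fold lower in F7033 (log2 -7.62 ± 0.28 SE, limma adjusted p = 3.76e-07). Its other probe set read 5.02 and 4.64 in F7033 and 14.08 and 13.88 in Cm484, a 569-fold difference. The name of the first probe set ends in x_at, which marks probes shared with other transcripts, and that of the second does not.

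rps21b, a gene of a small-subunit ribosomal protein, read 5.88 and 5.92 on the F7033 arrays, against 10.11 and 10.33 on the Cm484 arrays. It was 19.9-fold lower in F7033 (adjusted p = 9.74e-07), and Cm484 lay above the other lines (5.86 to 9.85). wip1, the gene of a wound-induced proteinase inhibitor, read 4.72 and 3.83 on the F7033 arrays, against 8.05 and 8.59 on the Cm484 arrays, while the other 3 lines ranged over 2.25 to 9.69. It was 16.5-fold lower (adjusted p = 0.000169). frk1, a fructokinase gene, read 5.50 and 5.89 on the F7033 arrays, against 9.42 and 10.03 on the Cm484 arrays and was 16.3-fold lower (adjusted p = 1.01e-05). The F7033 arrays of frk1 were below all other arrays of the series (8.41 to 9.71 in the other lines). tbp1, the gene of the TATA-binding protein of transcription initiation, read 2.44 and 2.47 on the F7033 arrays, against 7.57 and 7.67 on the Cm484 arrays, which put F7033 at the floor. It was at least 12.3-fold lower (adjusted p = 3.84e-07) and read 6.52 to 7.59 in the other lines.

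The cytokinin response regulator gene crr1 read 2.60 and 3.21 on the F7033 arrays, against 6.94 and 7.35 on the Cm484 arrays and was at least 8.83-fold lower in F7033 (adjusted p = 3.74e-05). The alpha-expansin gene expA3, of wall loosening, read 3.53 and 2.44 on the F7033 arrays, against 6.70 and 7.52 on the Cm484 arrays (at least 8.64-fold, adjusted p = 0.0289), a call lost in every fit without 1 array (adjusted p = 0.0754 to 0.138 without any 1 of the 4 arrays). Lower in F7033 were also the aquaporin gene NIP2-2 (8.45-fold, adjusted p = 0.000176), the benzoxazinoid gene bx6 (7.15-fold, adjusted p = 1.51e-05), the MADS-box gene zmm24 (6.22-fold, adjusted p = 0.000135) and the response regulator gene RR5 (5.93-fold, adjusted p = 0.000365). Next came pgr5 (5.84-fold, adjusted p = 0.000117), known in Arabidopsis for cyclic electron flow around photosystem I, the plastid fatty acid desaturase gene FAD8 (5.49-fold, adjusted p = 0.0132), gst41 (5.48-fold, adjusted p = 0.000171) and the chaperone gene hsp101 (5.44-fold, adjusted p = 0.000901). FAD8 lost its call in 2 of the 4 fits without 1 array (adjusted p = 0.0718 to 0.0747 without F7033 array 2 or Cm484 array 1).

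**Figure D2:**
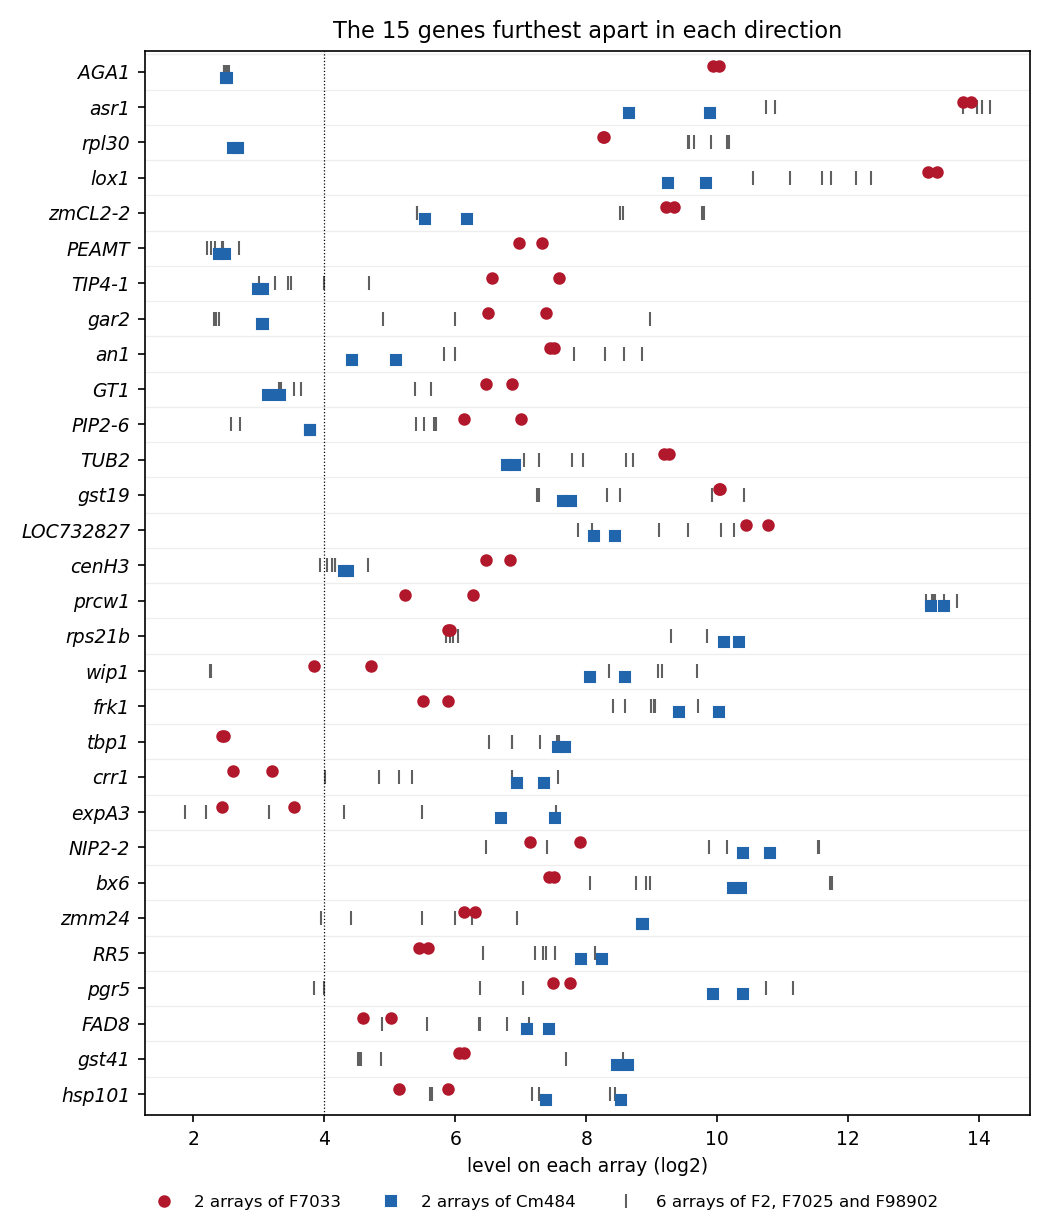
Level on each array (log2, horizontal axis) for the 15 called genes furthest apart in each direction, those higher in F7033 on top. Red circles are the 2 arrays of F7033, blue squares the 2 of Cm484 and grey ticks the 6 arrays of F2, F7025 and F98902, and the dotted line marks 4. For AGA1 only F7033 is off the floor, for rpl30 only Cm484 is at the floor, and for prcw1 F7033 alone is low.

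Where each line stood relative to the other 3 lines (F2, F7025 and F98902) varied from gene to gene. Of the 328 called genes, 113 (34.5%) had the F7033 mean outside the range of the 6 arrays of the other lines and the Cm484 mean inside it. The reverse held for 77 (23.5%), both means lay outside for 41 (12.5%) and both inside for 97 (29.6%). Among all 777 tested genes these shares were 22.8%, 16.1%, 12.1% and 49.0%. The calls share their arrays with these groupings, so the shares are a description. This range is not equally near to both lines, as the means of F7025 correlated at 0.929 with Cm484 and 0.8525 with F7033.

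In lignin monomer synthesis, 1 of 4 tested genes was higher in F7033 and none lower, against 22.7% and 19.6% of all tested genes. A further listed gene, cncr2, was below the filter. The called gene was cncr1, which encodes cinnamoyl-CoA reductase, the entry step to the monolignols. It read 12.04 and 12.46 on the F7033 arrays, against 10.57 and 10.96 on the Cm484 arrays. Both Cm484 arrays lay below the range of the other lines (11.11 to 12.42) and the F7033 mean within it, and cncr1 was 2.8-fold higher (log2 1.49 ± 0.19 SE, limma adjusted p = 0.000416). The 4-coumarate ligase gene 4CL, of the step before, read 11.68 and 11.82 on the F7033 arrays, against 11.06 and 11.40 on the Cm484 arrays (log2 difference 0.52 ± 0.20 SE, adjusted p = 0.0665). pal3, a gene of phenylalanine ammonia-lyase at the head of the pathway, read 13.15 and 13.12 in F7033 and 13.01 and 13.14 in Cm484 (adjusted p = 0.618). BM1, the brown midrib gene of cinnamyl alcohol dehydrogenase, read 12.09 and 12.16 in F7033 and 12.19 and 12.14 in Cm484 (adjusted p = 0.839). The arrays of the lines overlapped for pal3 and BM1. The median log2 difference over the 4 genes was 0.29, against 0.05 over all tested genes. At an unadjusted p under 0.05, 2 were higher and 0 lower.

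Of the laccases and class III peroxidases, enzymes able to couple monolignols in the wall, 2 of 5 passed the filter. None was called by limma, against 42.2% of all tested genes, 1 had an unadjusted p under 0.05, and the median log2 difference was -0.53. PER42 read 9.33 and 8.69 in F7033 and 10.30 and 9.72 in Cm484 (limma adjusted p = 0.0765), with F7033 below Cm484 on all arrays. LAC1 read 7.06 and 6.99 in F7033 and 6.86 and 7.33 in Cm484 (adjusted p = 0.835), and its arrays overlapped.

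The 3 cellulose synthases of secondary walls were all higher in F7033. cesa10 read 11.35 and 11.60 on the F7033 arrays, against 9.49 and 9.71 on the Cm484 arrays, a difference of 3.68-fold (log2 1.88 ± 0.26 SE, limma adjusted p = 0.000705). cesa11 read 10.98 and 11.19 on the F7033 arrays, against 9.76 and 9.61 on the Cm484 arrays, a difference of 2.64-fold (log2 1.40 ± 0.27 SE, adjusted p = 0.00375). For both genes the Cm484 arrays lay below every other array of the series (10.52 to 11.51 for cesa10 and 10.25 to 11.51 for cesa11 in the other lines). CesA12 read 11.38 and 11.73 on the F7033 arrays, against 10.84 and 10.63 on the Cm484 arrays, a difference of 1.76-fold (adjusted p = 0.0107; 0.0671 to 0.0783 without F7033 array 2 or Cm484 array 2). The probe set of cesa11 ends in s_at, a name for probes shared by several transcripts.

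The list held 2 COBRA-like genes as well. bk2, in which a mutation gives brittle stalks, read 9.69 and 10.09 in F7033 and 9.05 and 9.00 in Cm484 (log2 difference 0.86 ± 0.35 SE, limma adjusted p = 0.0784). Bk2L3, a related gene, read 11.06 and 11.34 in F7033 and 11.85 and 11.64 in Cm484 (-0.54 ± 0.20, adjusted p = 0.0578). Its second probe set was called lower (1.43-fold, adjusted p = 0.0424). With 3 of 5 members called higher and 0 lower, against 22.7% and 19.6% of all tested genes, the list had a median log2 difference of 0.86. At an unadjusted p under 0.05, 1 member was lower.

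Among the other 9 cellulose synthases, 1 was higher and 3 were lower in F7033, against 22.7% and 19.6% of all tested genes. CesA-4 read 10.79 and 11.01 on the F7033 arrays, against 9.75 and 9.22 on the Cm484 arrays and was 2.67-fold higher (limma adjusted p = 0.0046), with both Cm484 arrays below the other lines. CesA-6 read 8.53 and 8.82 on the F7033 arrays, against 10.06 and 10.43 on the Cm484 arrays and was 2.97-fold lower (adjusted p = 0.000621), with both F7033 arrays below the other lines (8.95 to 10.41). CesA-3 was 1.63-fold lower (adjusted p = 0.00115) at 8.36 and 8.35 in F7033 and 9.09 and 9.03 in Cm484. CesA-8 read 5.96 and 6.82 in F7033 and 7.59 and 8.28 in Cm484 (2.91-fold, adjusted p = 0.0299), and lost its call in 2 of the 4 fits without 1 array (adjusted p = 0.159 to 0.191 without F7033 array 1 or Cm484 array 2). CesA-7 averaged 12.25 in F7033 and 11.80 in Cm484 (adjusted p = 0.0638). Differences of the 5 members not called ran between -0.47 and 0.44, and the median over the 9 was -0.42.

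**Figure D3:**
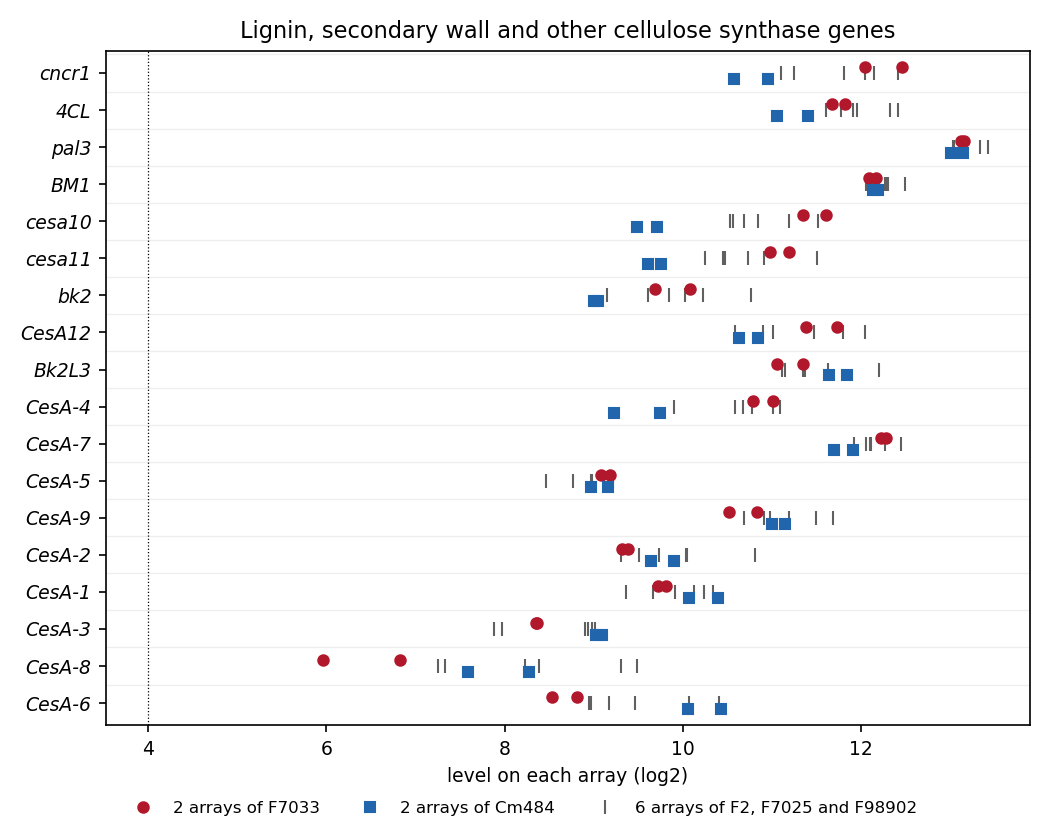
Level on each array (log2, horizontal axis) for the tested lignin monomer genes (top 4), secondary wall cellulose synthases and COBRA-like genes (next 5) and other cellulose synthases (lower 9), each group ordered by its difference. Red circles are the 2 arrays of F7033, blue squares the 2 of Cm484 and grey ticks the 6 arrays of F2, F7025 and F98902. For cncr1, 4CL, cesa10, cesa11, bk2 and CesA-4 both Cm484 arrays lie left of all others, and for CesA-6 and CesA-8 both F7033 arrays do.

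Of 5 genes of nucleotide sugars and hemicellulose, 1 was higher and 2 were lower in F7033, against 22.7% and 19.6% of all tested genes. pglcat8, named after a glucuronyltransferase, read 10.96 and 11.18 in F7033 and 9.70 and 9.91 in Cm484 (2.4-fold, adjusted p = 0.00202). RGP, the gene of a reversibly glycosylated polypeptide of sugar transfer, read 10.16 and 10.64 in F7033 and 11.38 and 11.60 in Cm484 and was 2.12-fold lower (adjusted p = 0.0191). The call was lost in 3 of the 4 fits without 1 array (adjusted p = 0.0544 to 0.134 without F7033 array 1 or Cm484 array 1 or 2). cks1, which activates the rare sugar KDO of pectin, was 1.58-fold lower (adjusted p = 0.00169). The UDP-glucuronate epimerase gene UGlcAE averaged 4.95 in F7033 and 5.93 in Cm484 (adjusted p = 0.136) and pglcat6 9.61 in F7033 and 9.47 in Cm484 (adjusted p = 0.301). The median log2 difference of the 5 was -0.66, and 1 member was called lower without F7033 array 1, Cm484 array 1 or Cm484 array 2.

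Genes of wall loosening and structural wall proteins, 9 of them tested, had a median log2 difference of 0.39. Against 19.6% lower and 22.7% higher over all tested genes, prcw1 and expA3, given above, were lower and 1 gene was higher. That gene, the beta-expansin expB7, read 6.91 and 6.43 in F7033 and 5.17 and 5.41 in Cm484 (2.6-fold, adjusted p = 0.0372), and the call was lost in every fit without 1 array (adjusted p = 0.0692 to 0.187 without any 1 of the 4 arrays). xet1, a xyloglucan endotransglycosylase gene, averaged 11.49 in F7033 and 11.10 in Cm484 (adjusted p = 0.145). The alpha-expansin expa1 read 10.59 and 10.49 in F7033 and 9.85 and 10.40 in Cm484 (adjusted p = 0.79), and the other lines ran over 6.88 to 11.68. In each of the 4 fits without 1 array, 1 gene of the list was called lower. Without F7033 array 2, Cm484 array 1 or Cm484 array 2, none was called higher.

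Aquaporins are channels for water and small solutes in the plasma membrane (PIP), the vacuole membrane (TIP) and other membranes (NIP, SIP). Of 9 tested plasma membrane aquaporins, 3 were higher in F7033 and none lower, against 22.7% and 19.6% of all tested genes. PIP2-6 read 6.13 and 7.00 in F7033 and 3.79 and 3.78 in Cm484, which put Cm484 just under 4. PIP1-3 read 10.98 and 11.08 in F7033 and 9.97 and 9.88 in Cm484 (2.15-fold, adjusted p = 0.00133), with all 4 of its probe sets called higher. PIP2-4 read 9.02 and 9.51 in F7033 and 8.26 and 7.43 in Cm484 (2.68-fold, adjusted p = 0.00636; 0.0509 without F7033 array 2). pip1-2 averaged 12.55 in F7033 and 12.12 in Cm484 (adjusted p = 0.0891). ZmPIP2-2 averaged 6.88 in F7033 and 7.91 in Cm484 (adjusted p = 0.0839), and 1 member was called lower without Cm484 array 1. At an unadjusted p under 0.05, 1 member was lower. The median log2 difference was 0.43.

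Of 12 other aquaporins, 4 were higher and 4 lower in F7033, against 22.7% and 19.6% of all tested genes, with a median of 0.0092. NIP2-2, of a subfamily known for silicon transport in grasses, read 7.14 and 7.90 in F7033 and 10.80 and 10.40 in Cm484. NIP2-3, of the same subfamily, read 11.02 and 10.84 in F7033 and 9.93 and 9.66 in Cm484 (2.2-fold, limma adjusted p = 0.00119), so this pair was called in opposite directions. NIP2-1, also of this subfamily, read 9.17 and 8.94 in F7033 and 9.12 and 9.67 in Cm484 and was not called (adjusted p = 0.167). Its second probe set was called lower (1.6-fold, adjusted p = 0.045). TIP1-1 read 9.66 and 10.12 in F7033 and 8.53 and 8.91 in Cm484 (2.25-fold, adjusted p = 0.0021). TIP4-1 read 7.59 and 6.56 in F7033 and 3.07 and 2.99 in Cm484, with F7033 above all other arrays, and TIP2-3 read 2.80 and 2.76 in F7033 and 5.39 and 4.99 in Cm484, lower in F7033 (at least 2.28-fold, adjusted p = 7.77e-05). When F7033 array 1, F7033 array 2 or Cm484 array 2 was left out, 2 members were called lower.

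Tubulins are the subunits of the microtubules that guide cellulose deposition. Of 12, 1 was higher and 2 were lower, against 22.7% and 19.6% of all tested genes, and the median log2 difference was -0.19. Apart from TUB2, given above, these were tub6, at 9.45 and 9.78 in F7033 and 10.24 and 10.44 in Cm484 (1.65-fold, adjusted p = 0.00317), and tub3 (1.34-fold, adjusted p = 0.0342; 0.105 to 0.203 without F7033 array 1 or 2 or Cm484 array 1). All 4 probe sets of tub6 were called lower, the most distant by 22.2-fold. tua4 averaged 13.13 in F7033 and 13.24 in Cm484 (adjusted p = 0.474). In the fits without F7033 array 1 or Cm484 array 1, 1 member was called lower.

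Of 13 photosystem and antenna genes, 5 were higher in F7033 and 1 was lower, against 22.7% and 19.6% of all tested genes. Their median log2 difference was 0.34. Among subunits of photosystem I, psan1 read 12.97 and 12.85 on the F7033 arrays, against 11.98 and 12.13 on the Cm484 arrays and was 1.81-fold higher (limma adjusted p = 0.000759). The F7033 arrays of psan1 were above all others (11.75 to 12.68 in the other lines). psad1, of the same photosystem, was 1.83-fold higher (adjusted p = 0.0115; 0.0507 to 0.0797 without F7033 array 2 or Cm484 array 1 or 2). PSBQ1, named for a protein of the oxygen-evolving side of photosystem II, was 1.59-fold higher (adjusted p = 0.00307), and the antenna gene lhcb6 was 1.58-fold higher (adjusted p = 0.00387) in all 3 of its probe sets. None of the 5 reached 2-fold. The member called lower was pgr5, at 7.49 and 7.75 in F7033 and 10.39 and 9.94 in Cm484, and the other lines spread over 3.84 to 11.16. Without F7033 array 2 or Cm484 array 1, 3 members were called higher.

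Of 9 enzymes of C4 photosynthesis and carbon fixation, 3 were higher and 1 was lower, against 22.7% and 19.6% of all tested genes. Their median was 0.46. pdrp1, which regulates pyruvate phosphate dikinase, read 9.66 and 9.60 in F7033 and 8.38 and 8.72 in Cm484 (2.12-fold, adjusted p = 0.0137; 0.0553 to 0.0871 without F7033 array 1 or 2 or Cm484 array 1). The malate dehydrogenase gene mdh6 was 1.42-fold higher (adjusted p = 0.0152; 0.0639 to 0.0818 without F7033 array 1 or 2 or Cm484 array 1). PPCK1, the kinase of phosphoenolpyruvate carboxylase, read 4.37 and 5.55 in F7033 and 3.32 and 3.61 in Cm484 (at least 1.94-fold, adjusted p = 0.0287; 0.0711 to 0.176 without F7033 array 2 or Cm484 array 1 or 2). The F7033 arrays of PPCK1 were more than 1 log2 unit apart, and its log2 difference was 2.08 without F7033 array 1 and 0.90 without F7033 array 2. Rubisco activase, rca1, was 2.02-fold lower (adjusted p = 0.00474) at 9.23 and 9.55 in F7033 and 10.32 and 10.49 in Cm484. The Rubisco small subunit gene ssu1 averaged 13.41 in F7033 and 13.16 in Cm484 (adjusted p = 0.148). Higher calls of the list were lost when single arrays were left out, as were calls over all tested genes.

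Of the 32 gene lists, that of cytosolic ribosomal proteins had the largest share of lower calls. Of its 19 genes, 13 were lower in F7033 and 2 higher, against 19.6% lower and 22.7% higher over all tested genes. The median log2 difference of the 19 was -0.70, against 0.05 over all tested genes. Beyond rps21b, the furthest apart was rpp2a-4, a gene of the acidic stalk proteins, at 9.13 and 9.14 on the F7033 arrays, against 11.58 and 11.40 on the Cm484 arrays. It was 5.11-fold lower (log2 -2.35 ± 0.20 SE, limma adjusted p = 4.32e-05), with both F7033 arrays below and both Cm484 arrays above the other lines (10.03 to 11.08). rps13 read 9.74 and 9.92 in F7033 and 11.28 and 11.12 in Cm484 (2.59-fold, adjusted p = 0.000513), again with the other lines in between. rpp2a-3 was 2.31-fold lower (adjusted p = 0.00579). The other 9 lower members differed by -1.11 (RP-P0) to -0.53 (rpl39). rpp2b averaged 12.45 in F7033 and 12.64 in Cm484 (adjusted p = 0.135). rpl30 and rpl29 were the members called higher, rpl29 at 9.68 in F7033 and 9.11 in Cm484 (adjusted p = 0.0191).

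The counts of the ribosomal list fell when single arrays were left out, and so did the calls over all tested genes. Without F7033 array 1 or Cm484 array 1, 8 members were called lower, and without any 1 of the 4 arrays 1 member was called higher. The extract behind Cm484 array 2 was the smallest of the 4 (20 µg). Without it and the second arrays of F2 and F98902, also from 20 µg, 6 members were called lower and 1 higher.

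Of 13 translation factors, 7 were lower in F7033 and none higher, against 19.6% and 22.7% of all tested genes, with a median of -0.32. eif3 read 8.28 and 8.37 in F7033 and 9.22 and 9.39 in Cm484 (1.97-fold, adjusted p = 0.00208), and the elongation factor genes elfa5 (1.51-fold, adjusted p = 0.00502) and elfa3 (1.42-fold, adjusted p = 0.00725) followed. For eif7 (1.41-fold, adjusted p = 0.0248; 0.136 to 0.155 without F7033 array 1 or Cm484 array 1) a second probe set was called higher. eif6, listed in RefSeq as eIF4E1, the cap-binding factor, was 1.37-fold lower (adjusted p = 0.023; 0.0779 to 0.0968 without any 1 of the 4 arrays). None of the 7 reached 2-fold, and at an unadjusted p under 0.05 still 0 members were higher. With F7033 array 1 or Cm484 array 1 left out, 3 were called lower, and without F7033 array 2 or Cm484 array 2, 4 were. Without the 3 arrays from 20 µg of RNA, 2 were. eif5a, which read 12.99 and 12.96 in F7033 and 12.92 and 12.93 in Cm484 (adjusted p = 0.679), was among the 5 genes with the smallest difference of the 100 with the highest levels.

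Of 19 genes of protein folding in the endoplasmic reticulum, 2 were higher and 3 lower, against 22.7% and 19.6% of all tested genes, with a median of -0.03. derlin4, of the export of misfolded proteins, read 8.87 and 8.37 in F7033 and 7.46 and 7.42 in Cm484 (2.25-fold, adjusted p = 0.00198). The thiol oxidase gene qsox1 was 1.5-fold higher (adjusted p = 0.0254). The disulfide isomerase gene pdi12 (1.74-fold, adjusted p = 0.0358), the chaperone gene bip2 (1.29-fold, adjusted p = 0.0396) and the calnexin gene CNX (1.25-fold, adjusted p = 0.0406) were lower. The calls of qsox1 (adjusted p = 0.0605 to 0.135 without any 1 of the 4 arrays), pdi12 (adjusted p = 0.0608 to 0.181 without any 1 of the 4 arrays), bip2 (adjusted p = 0.0669 to 0.191 without any 1 of the 4 arrays) and CNX (adjusted p = 0.0819 to 0.229 without F7033 array 1 or Cm484 array 1 or 2) were lost where an array was left out, and without F7033 array 1, Cm484 array 1 or Cm484 array 2 no member of the list was called lower (1 without F7033 array 2). When F7033 array 1, F7033 array 2 or Cm484 array 1 was left out, 1 was called higher.

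**Figure D4:**
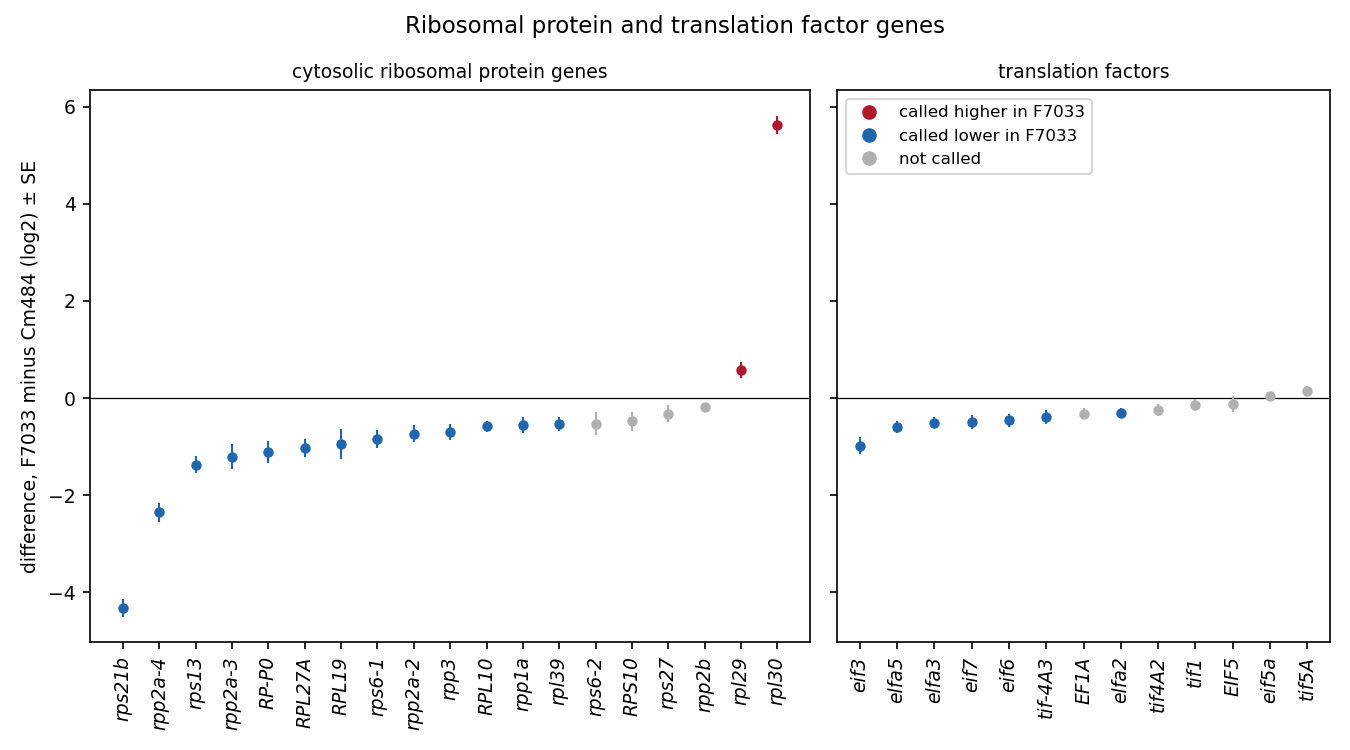
Difference between F7033 and Cm484 (log2, vertical axis, with its SE from the fit) for the tested genes of cytosolic ribosomal proteins (left) and translation factors (right), ordered by difference. Red points were called higher in F7033, blue points lower and grey points not. In the left panel 13 of 19 points are blue and 2 red, with rps21b and rpl30 at the ends, and in the right panel 7 of 13 are blue.

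Oxylipins such as jasmonate are signals made from fatty acids by lipoxygenases and the enzymes after them, and benzoxazinoids are defence compounds of grasses. Of 11 such genes, 3 were higher and 2 lower in F7033, against 22.7% and 19.6% of all tested genes, with a median of 0.15. Beside lox1, igl1, an indole synthase gene, was 1.61-fold higher (adjusted p = 0.00758; 0.0679 without F7033 array 1). The allene oxide cyclase gene aoc1, of jasmonate synthesis, read 8.26 and 8.24 in F7033 and 7.29 and 7.15 in Cm484 in the probe set with the higher mean (2.04-fold, adjusted p = 0.00171). Its second probe set read 3.87 and 3.92 in F7033 and 9.64 and 9.64 in Cm484, which is at least 49.9-fold lower (adjusted p = 2.26e-07). The 2 probe sets of aoc1 were thus called in opposite directions, and its place among the 3 higher genes rests on the choice of probe set. opr7, of the step after, was 1.91-fold lower (adjusted p = 0.00612; 0.0541 without F7033 array 1). bx6, a dioxygenase gene of benzoxazinoid synthesis, read 7.42 and 7.50 in F7033 and 10.37 and 10.24 in Cm484, and both of its probe sets were called lower. In the fit without F7033 array 1, 1 member of the list was called lower.

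Of 11 pathogenesis-related and wound genes, 5 were lower and 1 was higher in F7033, against 19.6% and 22.7% of all tested genes. Their median was -0.54. psei1 read 11.63 and 11.45 on the F7033 arrays, against 13.63 and 13.87 on the Cm484 arrays and was 4.61-fold lower (limma adjusted p = 5.26e-06). psei2 read 9.99 and 9.94 in F7033 and 11.88 and 12.16 in Cm484 (4.15-fold, adjusted p = 3.37e-05), through a probe set whose name ends in x_at. umi11, named for induction by the smut fungus Ustilago maydis, read 2.68 and 2.68 in F7033 and 5.93 and 6.26 in Cm484 and so was at the floor in F7033 (at least 4.27-fold, adjusted p = 4.52e-06). For wip1, psei1, psei2 and umi11 the other lines held both low and high values (for umi11, 2.41 to 8.74). hir1, of a family named for the hypersensitive reaction, was 2.11-fold higher (adjusted p = 0.00114) at 9.63 and 9.27 in F7033 and 8.36 and 8.38 in Cm484.

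Glutathione S-transferases, which conjugate reactive and foreign compounds, went both ways. Of 12 tested members (of 31 annotated), 4 were higher and 4 lower in F7033, against 22.7% and 19.6% of all tested genes. Their median was 0.14. gst19 read 10.02 and 10.05 in F7033 and 7.76 and 7.64 in Cm484, and gst10 read 6.41 and 6.13 in F7033 and 3.76 and 3.67 in Cm484 (at least 4.83-fold, adjusted p = 0.000442). gst41 read 6.06 and 6.13 in F7033 and 8.47 and 8.63 in Cm484, gst2 read 5.93 and 5.26 in F7033 and 7.91 and 7.93 in Cm484 (5.01-fold, adjusted p = 0.000262), and GST38 read 4.25 and 4.45 in F7033 and 6.37 and 6.52 in Cm484 (4.28-fold, adjusted p = 0.000263). The 5 named members kept their calls without any 1 of the 4 arrays. Of 8 antioxidant enzymes, 3 were higher and 0 lower, against 22.7% and 19.6% of all tested genes, with a median of 0.07. At an unadjusted p under 0.05, also 0 were lower. The catalase gene CAT3 read 12.91 and 12.84 on the F7033 arrays, against 11.30 and 11.23 on the Cm484 arrays. The F7033 arrays were above all others (10.78 to 12.47 in the other lines), and CAT3 was 3.06-fold higher (adjusted p = 0.000655). cat1 (1.74-fold, adjusted p = 0.00475) and the superoxide dismutase gene Sod4A (1.57-fold, adjusted p = 0.0127; 0.0537 to 0.0693 without F7033 array 1 or 2 or Cm484 array 1) were higher as well.

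Of 14 heat shock, dehydration and polyamine genes, 3 were higher and 5 lower, against 22.7% and 19.6% of all tested genes. Their median was -0.15. hsp101, whose product frees proteins from aggregates after heat, read 5.13 and 5.89 in F7033 and 7.39 and 8.52 in Cm484, and the Cm484 arrays were more than 1 log2 unit apart. The polyamine oxidase gene mpao1 read 8.66 and 8.17 in F7033 and 10.48 and 10.58 in Cm484 (4.32-fold, adjusted p = 0.0046), and Cm484 lay above the other lines (7.43 to 9.82). hsp18a, a small heat shock protein gene, was 2.66-fold higher (adjusted p = 0.0278; 0.0808 to 0.163 without F7033 array 1 or 2 or Cm484 array 1). The drought response regulator DREB2A was 1.88-fold higher (adjusted p = 0.00603). Called lower were 2 members without F7033 array 1, Cm484 array 1 or Cm484 array 2, and 3 without F7033 array 2.

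Cytokinin signals pass from histidine kinases through phosphotransfer proteins (HP) to response regulators, of which the A-type genes such as crr1 and crr2 are themselves induced by cytokinin. Of 28 hormone genes, 7 were higher and 10 lower in F7033, against 22.7% and 19.6% of all tested genes, with a median of -0.13. Of 8 tested response regulator genes of the list, 3 were lower, 1 was higher and 4 were not called. The lower ones were crr1 and RR5, given above, and crr2, at 4.32 and 4.53 in F7033 and 6.37 and 7.22 in Cm484 (5.19-fold, adjusted p = 0.00123), and RR9 was higher, at 7.93 and 7.84 in F7033 and 6.60 and 6.84 in Cm484 (2.24-fold, adjusted p = 0.00173). cko3, a cytokinin oxidase gene of cytokinin breakdown, read 4.25 and 4.92 in F7033 and 6.33 and 7.00 in Cm484 (4.22-fold, adjusted p = 0.00212). Of 3 histidine kinase genes, hk2 was higher (3.48-fold, adjusted p = 0.000165), HK1 lower (2.02-fold, adjusted p = 0.0011) and hk3 not called (adjusted p = 0.342). Of 3 phosphotransfer genes, HP1 (1.95-fold, adjusted p = 0.0006) and hp2 (1.33-fold, adjusted p = 0.0276) were higher and HP3 was not called (adjusted p = 0.327), and only HP1 was called without F7033 array 1, F7033 array 2 or Cm484 array 1. These 3 groups were counted after their values were seen. In gibberellin synthesis an1 was higher, as given above. Ethylene synthesis held the oxidase gene ACO20 higher (3.56-fold, adjusted p = 0.00125) at 9.90 in F7033 and 8.06 in Cm484 and ACO31 lower (2.96-fold, adjusted p = 0.00246) at 5.76 in F7033 and 7.33 in Cm484.

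Sucrose moves to the stem in the phloem, and is cleaved there by sucrose synthases and invertases. The list also held genes of fructokinases and of sucrose synthesis. Of its 11 genes, 4 were higher and 2 lower, against 22.7% and 19.6% of all tested genes, with a median of 0.21. Neither of the 2 lower genes was a sucrose synthase or invertase gene. The sucrose synthase gene sh1 read 11.39 and 11.32 on the F7033 arrays, against 10.11 and 10.39 on the Cm484 arrays. Its F7033 arrays were above the other lines (9.71 to 10.98), and it was 2.14-fold higher (limma adjusted p = 0.00028). A second synthase gene, sus2, was 1.89-fold higher (adjusted p = 0.0334; 0.053 to 0.176 without any 1 of the 4 arrays), and so was the vacuolar invertase gene ivr2 (1.7-fold, adjusted p = 0.031; 0.182 to 0.189 without F7033 array 2 or Cm484 array 1). Beside frk1, SPP2, of sucrose synthesis, was lower, at 2.20 and 2.18 in F7033 and 4.87 and 5.22 in Cm484 (at least 2.06-fold, adjusted p = 4.54e-05). The other fructokinase gene, frk2, averaged 11.12 in F7033 and 11.87 in Cm484 (adjusted p = 0.0524). Without F7033 array 1, 2 members were called higher, and without F7033 array 2 or Cm484 array 1, 1 was.

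Of 12 starch genes, 2 were higher and 3 lower, against 22.7% and 19.6% of all tested genes, with a median of 0.07. The branching enzyme gene sbe1 read 8.09 and 8.15 in F7033 and 6.96 and 7.26 in Cm484 (2.01-fold, adjusted p = 0.00203) and the debranching enzyme gene zpu1 4.55 and 4.02 in F7033 and 3.57 and 3.58 in Cm484 (at least 1.22-fold, adjusted p = 0.0338; 0.103 to 0.183 without F7033 array 1 or Cm484 array 1 or 2). Lower in F7033 were the granule-bound starch synthase gene GBSSIIa (2.5-fold, adjusted p = 0.00841; 0.0534 to 0.0609 without F7033 array 1 or Cm484 array 2), gss1 (1.74-fold, adjusted p = 0.0121; 0.0733 to 0.0836 without F7033 array 1 or Cm484 array 2) and the ADP-glucose pyrophosphorylase gene AGPLS3 (at least 1.53-fold, adjusted p = 0.00109). With F7033 array 1 or Cm484 array 2 left out, 1 member was called lower, and without F7033 array 1, Cm484 array 1 or Cm484 array 2, 1 was called higher.

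Of 12 glycolysis and fermentation genes, 2 were higher and 1 was lower, against 22.7% and 19.6% of all tested genes. Their median was 0.10. gpc3, of glyceraldehyde-3-phosphate dehydrogenase (1.98-fold, adjusted p = 0.016; 0.0607 to 0.105 without F7033 array 1 or 2 or Cm484 array 1), and the alcohol dehydrogenase gene adh2 (1.6-fold, adjusted p = 0.00917; 0.0629 to 0.0667 without F7033 array 1 or Cm484 array 1) were higher and the aldolase gene ald1 lower (1.65-fold, adjusted p = 0.0054; 0.0522 without F7033 array 1). GAPC1 read 12.73 and 12.86 in F7033 and 12.85 and 12.71 in Cm484 and was not called (adjusted p = 0.913). When F7033 array 1 or Cm484 array 1 was left out no member was called higher, and the fit without F7033 array 2 called 1. No member was called lower without F7033 array 1. GAPC1, grp1 (14.09 and 13.98 in F7033 and 13.97 and 14.03 in Cm484), BM1, L-FNRII (11.17 and 11.17 in F7033 and 11.09 and 11.17 in Cm484) and eif5a had the smallest differences among the 100 genes with the highest levels, and for the first 4 the arrays of F7033 and Cm484 overlapped.

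Of 24 genes of nitrogen, sulfur and amino acid metabolism, 8 were lower and 2 higher in F7033, against 19.6% and 22.7% of all tested genes. Their median was -0.28. The glutamine synthetase genes went both ways: gln3 read 5.19 and 5.25 in F7033 and 6.94 and 7.43 in Cm484 (3.89-fold, adjusted p = 0.00014) and was lower, and GLN6 read 9.40 and 9.21 in F7033 and 7.72 and 8.40 in Cm484 (2.37-fold, adjusted p = 0.00555) and was higher. The lysine pathway genes dps1, of its first committed step (2.81-fold, adjusted p = 0.000788), and lkrsdh1, of lysine breakdown (at least 2.69-fold, adjusted p = 0.000408), were both lower. lkrsdh1 read 3.10 and 3.08 in F7033 and 5.36 and 5.49 in Cm484. The tryptophan synthase gene TSB1 was 2.38-fold lower (adjusted p = 0.00862; 0.0681 without F7033 array 1). In the fits without F7033 array 1, F7033 array 2 or Cm484 array 1, 1 member was called higher.

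Of 10 ion and metal transport and storage genes, 4 were higher and 1 was lower, against 22.7% and 19.6% of all tested genes. Their median was 0.36. The phosphate transporter gene pht1 was 2.93-fold lower (adjusted p = 0.000952) at 6.97 and 7.45 in F7033 and 8.65 and 8.88 in Cm484. ys1, which takes up iron bound to phytosiderophores, read 5.58 and 5.86 in F7033 and 4.69 and 4.03 in Cm484 (2.56-fold, adjusted p = 0.00305), and the other lines stayed under 4 (2.58 to 3.25). The proton pump gene vpp1 of the vacuole (1.66-fold, adjusted p = 0.000911), the cation exchanger gene ZCAX2 (1.57-fold, adjusted p = 0.0118; 0.0798 to 0.092 without F7033 array 1 or Cm484 array 1) and the ferritin gene fer2 (log2 difference 0.43, adjusted p = 0.0444; 0.112 to 0.249 without F7033 array 1 or Cm484 array 1 or 2) were higher. Without F7033 array 1 or Cm484 array 1, 2 members were called higher.

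Of 14 lipid and sterol genes, 4 were higher and 4 lower, against 22.7% and 19.6% of all tested genes, with a median of -0.03. Beside FAD8, the omega-3 desaturase gene fad7 read 6.90 and 7.01 in F7033 and 8.96 and 9.24 in Cm484 (4.43-fold, adjusted p = 0.0101; 0.0562 to 0.0598 without F7033 array 1 or Cm484 array 2), so both plastid desaturase genes were called lower. smt1, a sterol methyltransferase gene, was 2.7-fold lower (adjusted p = 0.000314) at 7.82 and 7.72 in F7033 and 9.29 and 9.12 in Cm484. PLTP, a lipid transfer protein gene, read 10.16 and 8.87 in F7033 and 11.16 and 11.39 in Cm484 (3.39-fold, adjusted p = 0.0173; 0.0582 to 0.114 without F7033 array 2 or Cm484 array 1 or 2). Its log2 difference was -2.40 without F7033 array 1 and -1.12 without F7033 array 2, and a second probe set had the opposite sign (1.75 ± 0.71, adjusted p = 0.0759). Called higher were 1 member without F7033 array 1 and 2 without any other of the 4 arrays. Without F7033 array 2, Cm484 array 1 or Cm484 array 2, 2 were called lower.

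Of 16 cell cycle, replication and histone genes, 6 were higher and 3 lower, against 22.7% and 19.6% of all tested genes, with a median of 0.07. Beside cenH3, the histone gene his1 read 7.98 and 7.61 on the F7033 arrays, against 5.80 and 5.50 on the Cm484 arrays and was 4.42-fold higher (adjusted p = 5.56e-05), and the linker histone gene hon101 read 10.05 and 10.04 in F7033 and 8.53 and 8.31 in Cm484 (3.08-fold, adjusted p = 0.000362). The F7033 arrays of both lay above the other lines (4.02 to 6.19 and 7.51 to 9.52), though the probe set of his1 ends in x_at. orc1, of the origin recognition complex, was higher (at least 1.8-fold, adjusted p = 0.00215). pcna1, the sliding clamp of DNA polymerase, read 5.10 and 5.19 in F7033 and 6.99 and 6.97 in Cm484 and was lower (3.56-fold, limma adjusted p = 8.9e-05). MCM6, of the replicative helicase, was called lower in 1 of its 2 probe sets. That probe set read 3.81 and 3.65 in F7033 and 5.92 and 5.12 in Cm484 (at least 2.87-fold, adjusted p = 0.00958). Its call was lost without F7033 array 2 or Cm484 array 1. The other read 4.39 and 4.32 in F7033 and 5.13 and 4.20 in Cm484, so its arrays overlapped, and it was not called (1.24-fold, adjusted p = 0.496). Without Cm484 array 1, 1 member was called lower.

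Of 52 genes of chromatin modifiers and nucleosome factors, 11 were higher and 8 lower, close to the 22.7% and 19.6% of all tested genes, with a median of -0.0072. The SET-domain gene sdg110 read 4.70 and 4.92 in F7033 and 7.00 and 6.91 in Cm484 (4.44-fold, adjusted p = 2.19e-05) and was lower in both of its probe sets. The methyl-CpG-binding domain genes mbd106 (2.59-fold, adjusted p = 0.000157) and mbd109 (2.18-fold, adjusted p = 0.00344) were higher, and so was vef101 (2.22-fold, adjusted p = 0.000929), of the Polycomb group. The nucleosome assembly gene nfa101 was 2.39-fold lower (adjusted p = 0.0212; 0.0602 to 0.102 without any 1 of the 4 arrays). Without Cm484 array 1, 6 members were called higher, and without F7033 array 2 or Cm484 array 2, 7 were. Without F7033 array 2 or Cm484 array 1, 2 were called lower, and without F7033 array 1 or Cm484 array 2, 4 were.

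Of 11 homeodomain and MYB genes, which regulate development, 2 were higher and 0 lower, against 22.7% and 19.6% of all tested genes, with a median of 0.06. hox1a read 5.30 and 5.20 in F7033 and 3.22 and 3.27 in Cm484 (at least 2.38-fold, limma adjusted p = 1.98e-05). It was above 4 in F7033 alone (2.71 to 3.44 in the other lines) and passed the filter through F7033 only, so the limit given for AGA1 holds here too. hox3 was 1.7-fold higher (adjusted p = 0.0176), a call lost without F7033 array 1 or Cm484 array 1 or 2. The lignin repressors myb31 (5.28 in F7033 and 5.17 in Cm484, adjusted p = 0.717) and myb42 (6.02 in F7033 and 6.35 in Cm484, adjusted p = 0.337) were not called. At an unadjusted p under 0.05, 1 member was lower. Without Cm484 array 2, 1 member was called lower, and without F7033 array 1, Cm484 array 1 or Cm484 array 2, 1 was called higher.

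Of 10 MADS-box genes, 4 were higher and 1 was lower, against 22.7% and 19.6% of all tested genes, with a median of 0.18. zmm24 read 6.30 and 6.14 in F7033 and 8.85 and 8.86 in Cm484, and Cm484 was the line that stood apart from the rest (3.95 to 6.94 in the other lines). m15 (1.74-fold, adjusted p = 0.000702), m28 (1.52-fold, adjusted p = 0.028; 0.0512 to 0.169 without F7033 array 1 or Cm484 array 1 or 2), m4 (1.51-fold, adjusted p = 0.00774; 0.0651 without F7033 array 1) and zmm19 (1.34-fold, adjusted p = 0.0125; 0.059 to 0.0816 without F7033 array 1 or 2 or Cm484 array 2) were higher by less than 2-fold. With F7033 array 1 left out, 1 member was called higher, and without Cm484 array 2, 2 were. Growth-regulating factors (GRF) and their coactivators (GIF) promote cell proliferation in growing organs. Of 5 tested, with a median of 0.20, 1 was higher and none lower, against 22.7% and 19.6% of all tested genes. GIF2 was 1.62-fold higher (adjusted p = 0.00221) at 9.28 and 9.38 in F7033 and 8.64 and 8.63 in Cm484. The other 4 were not called, 1 of them lower at an unadjusted p under 0.05. GIF3 averaged 7.37 in F7033 and 7.83 in Cm484, GRF5 4.96 in F7033 and 5.36 in Cm484, GRF12 5.30 in F7033 and 4.99 in Cm484 and GRF4 7.02 in F7033 and 6.82 in Cm484 (adjusted p = 0.222, 0.0825, 0.292 and 0.323).

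**Figure D5:**
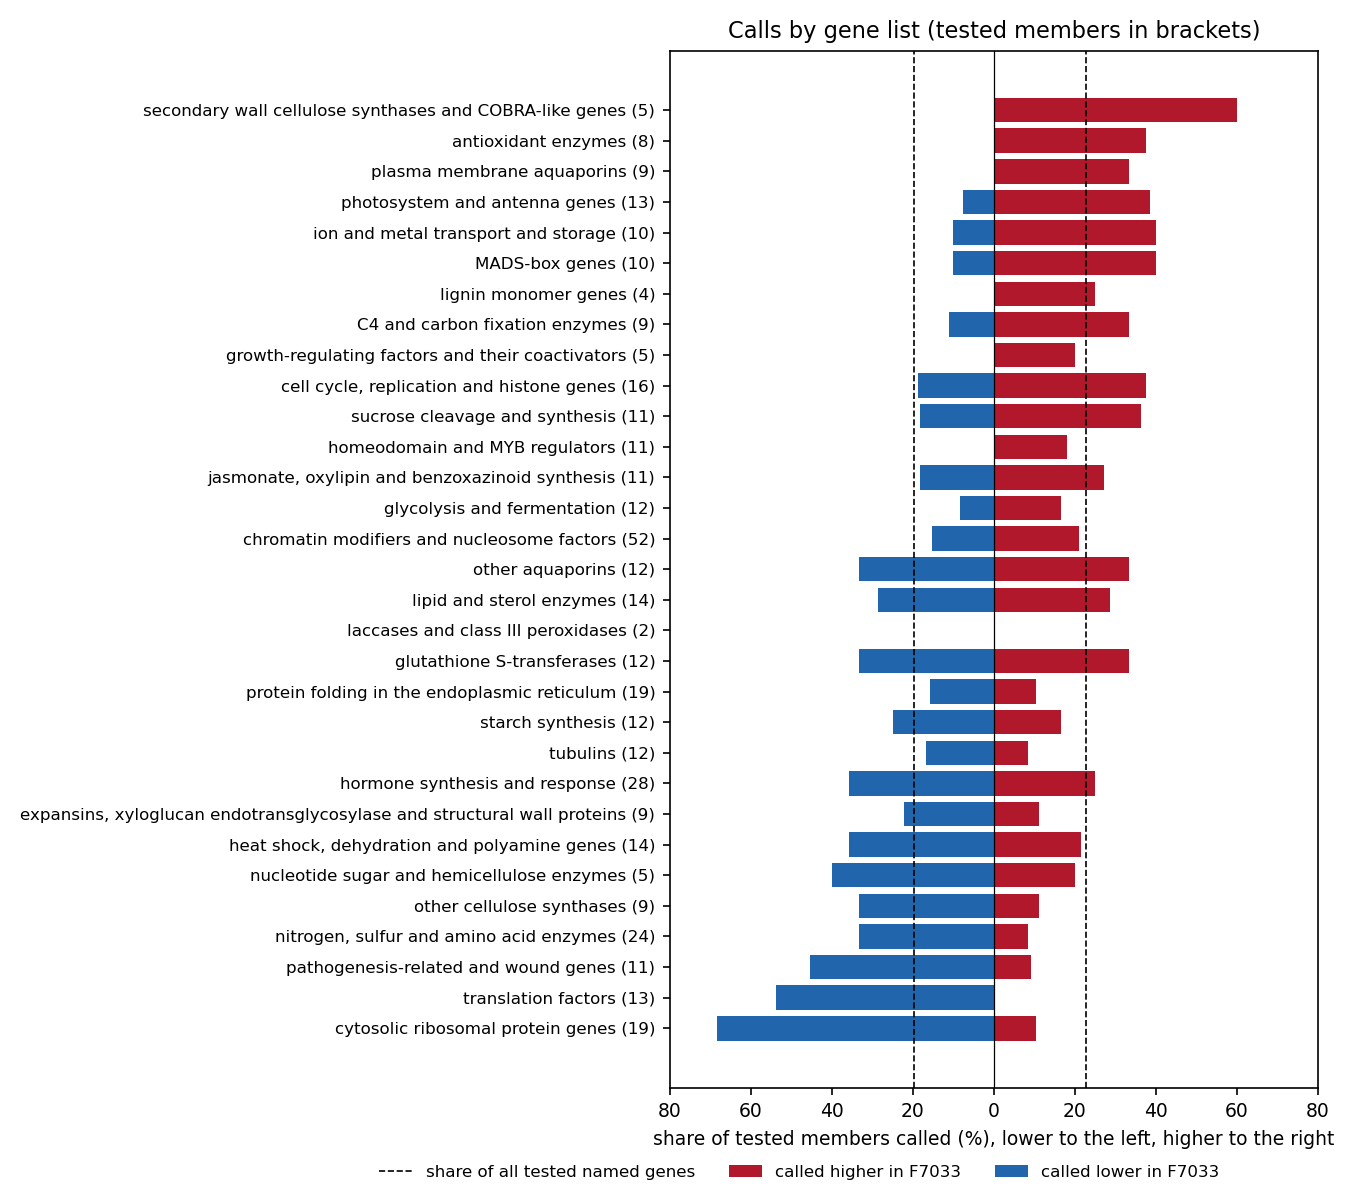
Share of the tested members of each gene list called lower (blue, to the left of 0) and higher (red, to the right of 0) in F7033 (%, horizontal axis), ordered by the difference of the shares, with the number of tested members in brackets. Dashed lines mark the shares over all 777 tested genes, 19.6% lower and 22.7% higher. Secondary wall cellulose synthases and COBRA-like genes are at the top and cytosolic ribosomal protein genes at the bottom.

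Where several probe sets stood for a gene they did not always read alike. Of 107 genes with 2 or more tested probe sets, 28 had all of them called the same way, 45 had none called, 31 had only some called and 3 had calls in opposite directions. The 3 were aoc1, eif7 and LOC541677 (higher in the probe set with the higher mean, 1.55-fold, adjusted p = 0.038; 0.108 to 0.216 without F7033 array 1 or 2 or Cm484 array 2). In phb1 (lower, 1.41-fold, adjusted p = 0.00952; 0.06 to 0.0694 without F7033 array 1 or Cm484 array 1) and IIG1 (higher, 1.41-fold, adjusted p = 0.0107; 0.0694 to 0.0761 without F7033 array 1 or Cm484 array 1) a further probe set had the opposite sign. In LOC542286 (adjusted p = 0.625), LOC542441 (adjusted p = 0.645) and ubc7 (adjusted p = 0.802) the probe set with the highest mean was not called, while 1 of opposite sign was. With the median of a gene's probe sets in place of that with the highest mean, 173 genes were higher and 155 lower.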

How the data were processed

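Stem RNA of 5 maize inbred lines was hybridised to Affymetrix maize arrays, 2 arrays per line, and the line in the labels set the groups. The values are the authors' deposited log2 values per probe set, normalized with GCRMA per the submitters' processing notes. The version is not given in the sources used here, and neither is the log base, which was read as log2 from the range of the values. These arrays give no counts, and their number limits the precision. The comparison and the gene lists were chosen with earlier results of these data known.

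Of 17734 probe sets, 113 AFFX and 66 RPTR controls were left out, 7019 were below the filter and 10536 were tested. limma 3.58.1 (R 4.3.3) fitted the line means on all 10 arrays, with a variance trend (5 residual and 3.3 prior degrees of freedom), and p-values were adjusted over all tested probe sets by the Benjamini-Hochberg method. The fit was tested on simulated data with independent noise, which held no deviation shared by the probe sets of an array. Tables and figures used Python 3.11.15 with pandas 2.3.3 and matplotlib 3.10.9. GEO's platform annotation names 1 gene for 1452 probe sets, several for 1 and none for 16281. Symbols came from RefSeq's B73 NAM-5.0 table, where 1060 of 1108 genes matched. The probe set with the highest mean over the 4 arrays stood for a gene. Where a line mean was under 4, it was raised to 4 and the fold is given as "at least". Names ending in s_at or x_at mark probes shared with other transcripts, among them those of prcw1, his1, psei2, elfa3, ubc7, cesa11, pglcat8, cko3, PLTP, GAPC1, tua4 and grp1.

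The genes named are the 15 called genes furthest apart in each direction with all probe sets on 1 side of 0, up to 5 called members of each list, and all tested members of the lignin and secondary wall lists and of lists of 5 or fewer. They further include genes whose probe sets were called in opposite directions, or of which 1 was called and another had the opposite sign, and the 5 with the smallest difference among the 100 with the highest levels. Outside this rule, and chosen after their values were seen, are ACO20, ACO31, CesA-7, HK1, HP1, HP3, NIP2-1, RP-P0, RR9, ZmPIP2-2, expa1, frk2, hk2, hk3, hp2, kn1, myb31, myb42, orc1, pip1-2, rpl29, rpl39, rpp2b, ssu1, tua4 and xet1. Alternatives changed the arrays in the fit, the trend, the filter, the normalization, array weights, the replicate block, the call rule and the probe set of a gene, and left out single arrays or the 3 arrays from 20 µg of RNA.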

Additional observations from a re-analysis of the deposited data

How the results depend on the processing

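Of the 132 named genes that were called, 87 kept their call without each of the 4 arrays and 45 lost it without at least 1. Without 1 array, 2940 to 3541 probe sets were called (1497 to 1777 higher and 1443 to 1773 lower in F7033) and 203 to 248 genes (113 to 145 higher and 90 to 119 lower), with the lowest counts without F7033 array 1. Without the 3 arrays from 20 µg of RNA, 2964 probe sets were called, 1486 higher and 1478 lower, and 220 genes, 120 higher and 100 lower. Fewer arrays leave fewer degrees of freedom. With a 2-fold minimum, 2282 probe sets (1093 higher and 1189 lower) and 162 genes (83 higher and 79 lower) were called. Counts stayed within 1.5 times of the main ones under the other alternatives: 3909 probe sets with a minimum of 6, 4374 with no filter, 4526 with no variance trend, 5121 with the 4 arrays alone, 5552 with array weights and, for genes, 194 higher and 144 lower under quantile normalization.

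With the replicate number as a block, 4619 probe sets were called, 2293 higher and 2326 lower, and 330 genes, 178 higher and 152 lower. The deviations of same-numbered arrays of F7033 and Cm484 correlated at 0.017, and over the 10 pairs of lines the correlation ran over -0.374 (F7025 and F98902) to 0.400 (Cm484 and F98902). It was highest for Cm484 and F98902 (0.400), F2 and F98902 (0.380) and Cm484 and F2 (0.279), the lines whose second array came from 20 µg of RNA. Whether the amount of RNA bears on this was not tested. The labels give no field block or day shared by a replicate number, so the main fit held no block. Of the 132 calls, 2 (CNX, adjusted p = 0.0506, and fer2, adjusted p = 0.0553) were lost under the block.

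Signs turned for a few named genes that were not called, and the cause was not tested. Under quantile normalization the log2 differences were -0.0345 (pal3), 0.0082 (gz27), -0.0390 (GAPC1), -0.0485 (grp1), -0.0187 (eif5a) and -0.0414 (ubc7). Without the 20 µg arrays they were 0.162 (LAC1), 0.193 (gz27), -0.0567 (GAPC1), -0.111 (ubc7) and -0.0504 (LOC542441). Without 1 array they ran over -0.0061 to 0.128 (pal3), -0.305 to 0.162 (LAC1), -0.277 to 0.270 (gz27), -0.0567 to 0.0896 (GAPC1), -0.0192 to 0.0903 (grp1), -0.111 to 0.220 (ubc7), -0.0823 to 0.361 (LOC542286) and -0.0504 to 0.182 (LOC542441). With the median of a gene's probe sets, the called genes aoc1 (-2.36), eif7 (0.17) and phb1 (0.18) changed sign, since their probe sets differ in sign, and so did GAPC1 (-0.11), LOC542286 (-0.29) and LOC542441 (-0.30), which were not called.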

Other observations

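Of the listed genes, 147 had no probe set past the filter in F7033 and Cm484, and 27 of these read 4 or more on an array of another line. HRGP, named for hydroxyproline-rich glycoproteins, reached at most 2.25 on the arrays of F7033 and Cm484 and 11.73 on an array of another line. The alpha-expansin gene expA4 reached 5.26 on 1 array of the pair and 8.50 elsewhere. The dehydrin gene dhn1 reached 3.09 in the pair and 8.31 elsewhere, opr1 3.90 and 8.44, and the peroxidase gene pox2 2.37 and 6.49.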
